A study of Mus musculus with 24 samples.

Results

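The extracellular proteases of the matrix metalloproteinase (MMP), ADAM and ADAMTS families, the ADAMTS-like proteins and the tissue inhibitors of metalloproteinases (TIMPs) were followed across 8 mouse astrocyte lines that differ in sex and in the p53 protein they carry. Members were the protein-coding genes whose GENCODE M21 symbol is Mmp, Timp, Adam, Adamts or Adamtsl followed by a number. The annotation holds 83 such genes, and 49 of them are among the 14427 genes of the count table. These 49 were 7 secreted and 7 membrane-bound MMPs, 3 TIMPs, 8 ADAMs with a protease active site, 3 ADAMs of the brain that lack one, 2 other ADAMs, 14 ADAMTS proteases and 5 ADAMTS-like proteins. The 34 members not in the table, among them *Mmp7*, *Mmp8*, *Mmp10*, *Mmp12*, *Timp4*, *Adam28* and the ADAMs of the testis, were not analysed here.

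The cells were cortical astrocytes from C57BL/6 mice on postnatal day 1, with pups pooled by sex, so that all male lines go back to 1 male culture and all female lines to 1 female culture. Each line had 1 deleted and 1 floxed allele of *Trp53*, and the floxed allele was removed with a lentiviral Cre and puromycin selection in every line, the p53 KO controls included. Male and female p53 R172H, p53 Y202C and p53 Y217C lines carried in addition a retrovirus that expresses the named mutant p53 with eGFP, and were sorted for eGFP. The male and female p53 KO lines had neither that virus nor that sort, so mutant p53, the second virus and the sort cannot be told apart. Cells were at passage 10 to 15 and grew in medium with serum. Each of the 8 lines had 3 polyA RNA-seq libraries from separate thaws and platings, so the spread given below is between platings of 1 line and not between animals.

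MMPs are zinc proteases that together cleave most proteins of the extracellular matrix. Most are secreted as inactive proenzymes, and a smaller set is held at the cell surface. ADAMs are membrane proteins, several of which shed the outer part of other membrane proteins, such as growth factor precursors, cytokines and adhesion molecules. ADAMTS proteases are secreted and carry thrombospondin repeats. One branch of them cleaves the chondroitin sulphate proteoglycans that astrocytes lay down in the brain matrix, and another trims procollagens. ADAMTS-like proteins have the same repeats but no protease domain, and TIMPs bind the active site of these enzymes. In astrocytes these genes are known for their part in glial scars, in the leakiness of the blood-brain barrier and in the invasion of glial tumours.

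Total counts of a library ran from 52787288 to 136503809. Levels are given as CPM (a library's counts scaled to a common total, with TMM scaling of library sizes), in the order of replicates 1, 2 and 3. Differences are on the log2 scale with their standard error (± SE), and every adjusted p below is from edgeR's quasi-likelihood test with Benjamini-Hochberg adjustment over the 14427 genes, with a threshold of 0.05. *Trp53* itself averaged 50.9 CPM in the male and 48.9 CPM in the female p53 KO line and between 593 CPM (female p53 Y202C) and 3709 CPM (female p53 Y217C) in the mutant lines. The astrocyte label was borne out only in part. *Sox9* ran from 70.9 to 186 CPM and *Gja1* from 77.3 to 238 CPM over the 24 libraries. However, *Gfap* was over 1 CPM only in the 3 male p53 Y217C libraries and *Aqp4* in 6 libraries. Of the other astrocyte markers read, *Slc1a3* had a median of 14 CPM and *Aldoc* of 2.06 CPM. Medians of *Slc1a2*, *Aldh1l1* and *S100b* were 0.460, 0.455 and 0.185 CPM. Of the 7 fibroblast markers, *Col1a1* stood at 3067 to 24020 CPM, *Col1a2* at 2427 to 16660 CPM and *Pdgfra* at 2.17 to 175 CPM. *Foxc1* and *Twist1* had medians of 164 and 67.2 CPM. The level of *Dcn* was lower, with a median of 3.78 CPM, and *Lum* was over 1 CPM in 3 libraries only. The 5 pericyte or smooth muscle markers summed to 2547 to 4466 CPM, most of it *Acta2* (2168 to 3604 CPM). Among these 5, *Myh11* and *Rgs5* were low, with medians of 0.969 and 1.12 CPM. The 9 astrocyte markers summed to 197 to 653 CPM. Of the microglial markers, *Aif1*, *Cx3cr1*, *P2ry12*, *Ptprc* and *Itgam* were not in the table, and the 3 others summed to 26.5 to 116 CPM (*Tmem119* 15.8 to 113 CPM, *Cd68* 1.74 to 25.5 CPM and *Csf1r* 0.198 to 3.18 CPM). In such bulk libraries fewer cells of a type and less RNA per cell cannot be told apart.

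The members carried between 0.466% and 0.712% of a library's counts. Of the 49 members, 33 were over 1 CPM in all 24 libraries. Another 7 were over 1 CPM in every library of 1 line only: *Adam5*, *Adamts3*, *Adamts8* and *Adamtsl2* in male p53 Y217C, *Adamts15* and *Mmp13* in female p53 R172H, and *Mmp24* in female p53 Y202C. The table had been filtered on low counts, so genes like these entered it through the line where they were high and had to differ. Another gene of the table overlaps 11 members, 9 of them on the opposite strand, and the sources do not state that counting used strand. The reads of these members (*Adam1a*, *Adam17*, *Adamts4*, *Adamts7*, *Mmp11*, *Mmp19*, *Mmp24*, *Mmp28*, *Timp1*, *Timp2* and *Timp3*) could therefore include some of a neighbour's, as of *Syn3* for *Timp3*, which lies in an intron of *Syn3*.

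Members rose and fell in every mutant line. For most members the direction changed from line to line, a share that was not counted over all genes. In male p53 R172H, 15 members rose and 15 fell, where 20.2% of all genes rose and 20.5% fell. In male p53 Y202C, 11 rose and 30 fell, against 37.6% and 35.4% of all genes. In male p53 Y217C, 16 rose and 25 fell, against 34.9% and 35.6%. The female p53 R172H line had the most rises, with 26 members higher and 13 lower, against 34.4% and 35.3%. For female p53 Y202C the split was 23 higher and 16 lower, against 34.3% and 34.3%. In female p53 Y217C, 11 rose and 20 fell, against 28% and 28.7%. Each set of 3 comparisons in 1 sex shares its p53 KO libraries.

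The 7 members that had to differ are in these counts, which therefore describe the members in the table and no more. The median absolute log2 difference of the members was 0.34 in male p53 R172H (0.19 over all genes), 1.0 in male p53 Y202C (0.46), 1.14 in male p53 Y217C (0.40), 0.61 in female p53 Y217C (0.28), 0.80 in female p53 R172H (0.39) and 0.74 in female p53 Y202C (0.38). The median signed difference lay lowest in male p53 Y202C, at -0.51, and highest in female p53 R172H, at 0.31. Over all genes it was within 0.02 of 0 in each of these 6 comparisons. Of the 49 members, 34 rose in at least 1 mutant line and fell in at least 1 other, 7 rose without falling anywhere, 7 fell without rising anywhere, and *Adam1a* passed the threshold in none of the 6. Only 5 members stayed within 2-fold between their highest and lowest line, namely *Adam9*, *Adam10*, *Adam15*, *Adam17* and *Timp2*. For 16 the highest line was 10-fold or more above the lowest. A p53 KO line was the highest of the 8 for 6 members and the lowest for 10. These counts over lines were not made for all genes, so whether the members stand out in them is not known.

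**Figure D1:**
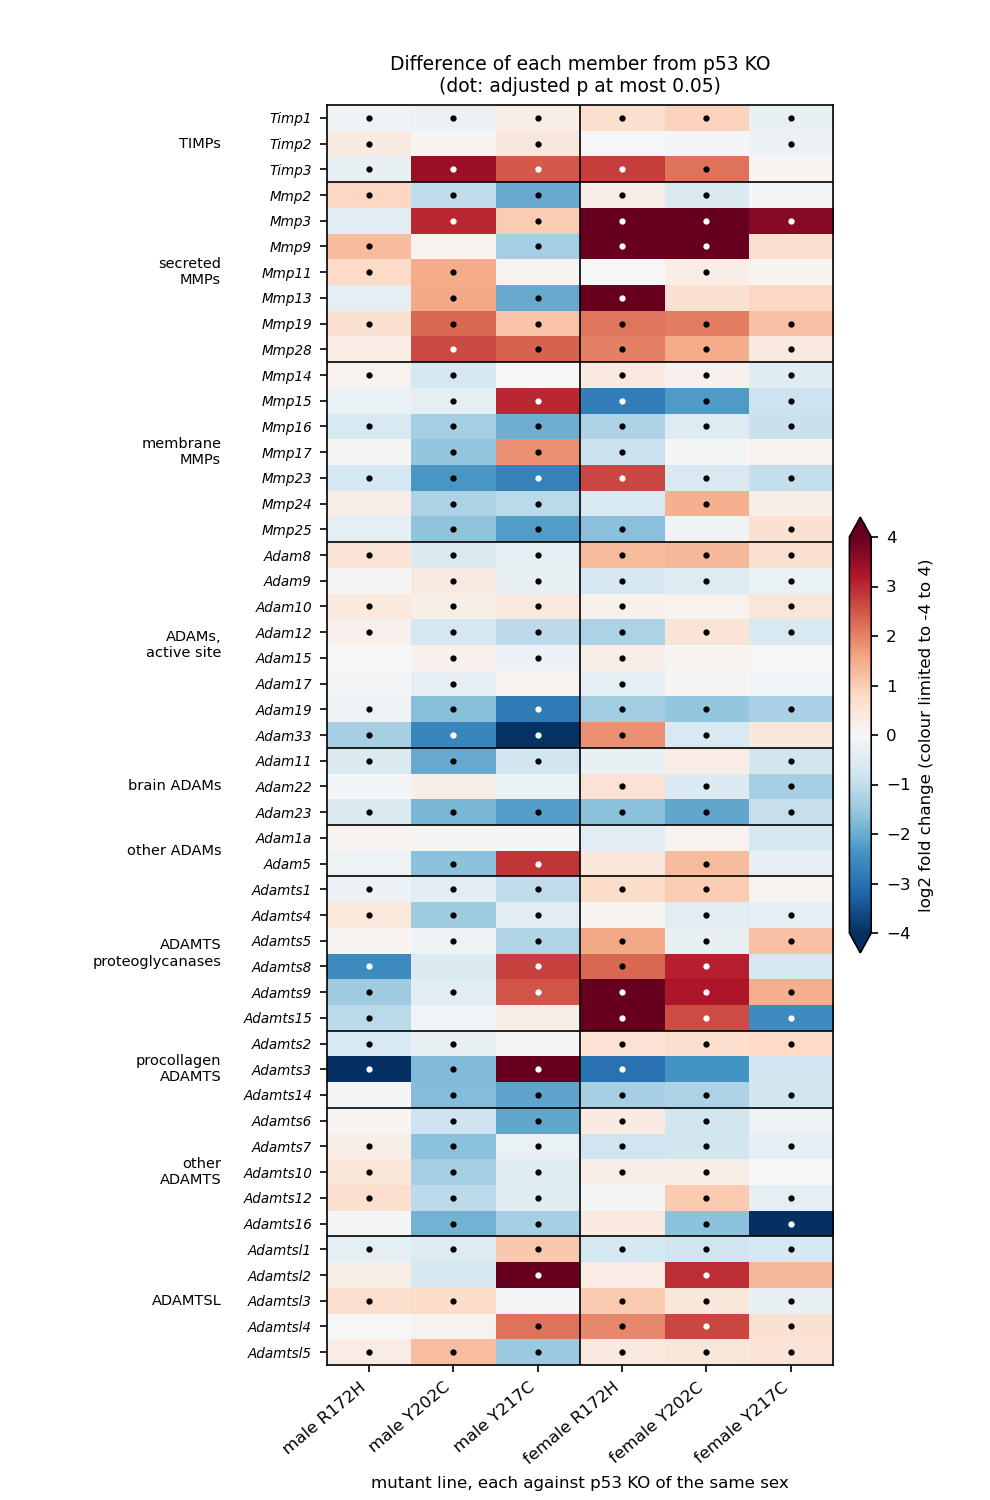
Log2 difference of each of the 49 members (rows, by role) from p53 KO of the same sex in the 6 mutant lines (columns), with the colour limited to -4 to 4 and a dot where the adjusted p was at most 0.05. *Timp3*, *Mmp28* and the proteoglycanases *Adamts8* and *Adamts9* are red in several columns, male p53 Y202C has 30 lower members and female p53 R172H 26 higher ones.

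Among secreted MMPs, 2 interstitial enzymes are shown with their promoters, because they were near 0 in some lines and clearly present in others, and because the AP-1 motif that these genes are known for could be looked for. *Mmp3* encodes stromelysin-1, which cleaves proteoglycans and fibronectin and activates other proMMPs, and *Mmp13* encodes collagenase-3, which cuts fibrillar collagen. They lie on chromosome 9 on the + strand of GRCm38, *Mmp13* from 7272514 to 7283331 and *Mmp3* from 7445822 to 7455975. The 250 bases before each RefSeq start (GRCm38.p6, chr9:7272264-7272513 for *Mmp13* and chr9:7445572-7445821 for *Mmp3*, 5′ to 3′) are printed with the AP-1 letters TGACTCA, or TGAGTCA for the other strand, in capitals.
Mmp13: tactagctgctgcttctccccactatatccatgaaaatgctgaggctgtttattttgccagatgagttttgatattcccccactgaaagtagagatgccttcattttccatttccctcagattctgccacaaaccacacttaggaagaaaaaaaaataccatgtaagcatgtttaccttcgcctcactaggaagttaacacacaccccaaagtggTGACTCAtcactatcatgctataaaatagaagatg
Mmp3: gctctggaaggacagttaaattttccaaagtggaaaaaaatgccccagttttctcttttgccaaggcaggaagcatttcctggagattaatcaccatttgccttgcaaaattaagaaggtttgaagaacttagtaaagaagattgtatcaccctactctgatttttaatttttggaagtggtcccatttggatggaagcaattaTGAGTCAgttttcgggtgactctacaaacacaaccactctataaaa
The motif began 35 bases before the start in *Mmp13* and 46 bases before it in *Mmp3*. RefSeq promoter windows were at hand for 30 of the 49 members (33 windows), and the AP-1 letters stood on either strand in 3 of the 33 (9.09%), those of *Mmp3*, *Mmp13* and 1 window of *Adam19*. Over all 32851 windows the share was 4.46%. The letters TATAAA, or TTTATA for the other strand, stood in 12.1% of member windows and 12.4% of all. Such matches describe the letters only.

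*Mmp3* and *Mmp13* shared the motif but not their pattern. *Mmp3* was at 0.568, 0.882 and 0.762 CPM in male p53 KO and at 6.09, 5.84 and 6.25 CPM in male p53 Y202C, its highest line. Male p53 Y217C libraries held 1.91, 1.02 and 1.54 CPM and male p53 R172H libraries 0.339, 0.845 and 0.522 CPM. In the female p53 KO line only 2, 0 and 0 counts were seen in the 3 libraries, below a floor of 3 counts a library. All 3 male p53 Y202C libraries were far above every other library, and male p53 R172H overlapped male p53 KO. The rise in male p53 Y202C was 3.02 ± 0.35 (adjusted p = 3.17e-08). The difference of 1.0 in male p53 Y217C passed (adjusted p = 0.0129) but not without male p53 KO replicate 1 (0.86, adjusted p = 0.0546) or without male p53 Y217C replicate 1 (0.77, adjusted p = 0.078). In female p53 R172H, with 1.56, 1.37 and 1.38 CPM, *Mmp3* was at least 44.4-fold higher than the floor of female p53 KO, and in female p53 Y202C, with 0.261, 0.216 and 0.154 CPM, at least 6.52-fold higher. Female p53 Y217C reached 0.0235, 0.254 and 0.0296 CPM. Its call (adjusted p = 0.00587) rested on replicate 2, without which the adjusted p was 0.257.

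*Mmp13* was over 1 CPM in 1 line only, the line through which it entered the table. Female p53 R172H libraries held 2.9, 2.73 and 2.38 CPM, and female p53 KO libraries 0, 0.0769 and 0.0386 CPM. The groups were apart by 6.17 ± 0.54 (adjusted p = 4.09e-10), a fitted value that leans on a control close to 0. In the male lines, p53 KO held 0.145, 0.286 and 0.396 CPM, p53 Y202C 0.901, 0.596 and 0.93 CPM and p53 Y217C 0.0998, 0.0259 and 0.0803 CPM. *Mmp13* rose in male p53 Y202C (log2 1.5, adjusted p = 0.00205) and fell in male p53 Y217C (log2 -2.03, adjusted p = 0.00359). The adjusted p in male p53 R172H, female p53 Y202C and female p53 Y217C was 0.527, 0.564 and 0.426. *Mmp9*, the gelatinase B that degrades basement membrane collagen, was likewise highest in female p53 R172H, at 8.38, 6.62 and 5.93 CPM against 0.0589, 0.154 and 0.193 CPM in female p53 KO. It rose there by 5.68 ± 0.47 (adjusted p = 1.56e-10) and in female p53 Y202C (1.42, 2.35 and 2.67 CPM) by 4.0 ± 0.48 (adjusted p = 9.71e-08). No library of either line overlapped female p53 KO. The 3 microglial markers in the table, of which *Tmem119* made up most in the female lines, summed to 105 to 116 CPM in female p53 R172H, 75.0 to 90.3 CPM in female p53 Y202C and 45.8 to 49.6 CPM in female p53 KO. They summed to 97.0 to 105 CPM in female p53 Y217C, where *Mmp9* differed from female p53 KO by 0.68 (adjusted p = 0.345), and their part in the *Mmp9* differences was not tested. In male p53 Y202C the *Mmp9* difference was 0.15 (adjusted p = 0.75). The male calls were less firm. *Mmp9* rose in male p53 R172H (log2 1.27, adjusted p = 0.00940), but the adjusted p was 0.0521 without male p53 KO replicate 1, and it fell in male p53 Y217C (log2 -1.37, adjusted p = 0.0103), but not without male p53 KO replicate 3 (adjusted p = 0.0621) or without male p53 Y217C replicate 2 (adjusted p = 0.0625).

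*Mmp2*, gelatinase A, was among the most abundant members and moved in both directions. It stood at 596, 636 and 652 CPM in male p53 KO, at 1050, 1124 and 1174 CPM in male p53 R172H, at 342, 310 and 288 CPM in male p53 Y202C and at 154, 154 and 158 CPM in male p53 Y217C. These 4 male lines did not overlap. *Mmp2* rose in male p53 R172H by 0.83 ± 0.06 (adjusted p = 2.4e-10), fell in male p53 Y202C (log2 -1.0, adjusted p = 6.82e-13) and fell most in male p53 Y217C, with -2.02 ± 0.07 (adjusted p = 2.08e-18). Female p53 KO libraries held 933, 961 and 967 CPM, female p53 R172H libraries 1207, 1124 and 1119 CPM and female p53 Y202C libraries 619, 694 and 615 CPM. The differences were 0.27 (adjusted p = 0.000498) and -0.57 (adjusted p = 2.4e-08). Female p53 Y217C stood at 959, 859 and 906 CPM and overlapped its control, with -0.07 (adjusted p = 0.340, but 0.0281 in limma).

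*Mmp19*, *Mmp28* and *Mmp11* mostly rose. *Mmp19*, a broad protease of basement membranes, rose in all 6 mutant lines, from 0.61 in male p53 R172H to 2.28 in male p53 Y202C, where its level was 70.5, 66.3 and 76 CPM against 11.6, 15.8 and 16.2 CPM in male p53 KO. Female p53 KO stood at 9.08, 10.3 and 10.7 CPM and female p53 Y217C, the lowest female mutant line, at 26.8, 19.6 and 21.8 CPM (1.18 ± 0.13, adjusted p = 4.62e-08). No library of the 3 female mutant lines overlapped female p53 KO. *Mmp28*, epilysin, which is known from skin and neural tissue, stood at 4.33, 5.87 and 5.92 CPM in male p53 KO, 34.9, 34.4 and 31.8 CPM in male p53 Y202C and 29.9, 24.5 and 28.4 CPM in male p53 Y217C. It rose by 2.64 ± 0.13 (adjusted p = 8.06e-15) and 2.35 ± 0.13 (adjusted p = 6.31e-14). In female cells *Mmp28* went from 3.92, 3.73 and 3.88 CPM in p53 KO to 17.0, 15.1 and 15.0 CPM in p53 R172H and 10.9, 10.6 and 10.5 CPM in p53 Y202C, rises of 2.03 (adjusted p = 2.12e-12) and 1.47 (adjusted p = 1.2e-09). These 4 mutant lines lay wholly above both p53 KO lines. In male p53 R172H the difference was 0.29 (adjusted p = 0.0803), and the call in female p53 Y217C (log2 0.40, adjusted p = 0.0178) was lost in limma (adjusted p = 0.0726), without female p53 KO replicate 2 (0.0507) and without female p53 Y217C replicate 1 (0.163). *Mmp11*, stromelysin-3, rose in male p53 R172H (72.1, 82.5 and 82.2 against 41.5, 45.8 and 48.8 CPM, 0.80 ± 0.09, adjusted p = 2.45e-07) and in male p53 Y202C (log2 1.47). As a group the 7 secreted MMPs counted 6 rises and 0 falls in female p53 R172H (34.4% and 35.3% of all genes), 5 and 1 in male p53 Y202C (37.6% and 35.4%) and in female p53 Y202C (34.3% and 34.3%), 4 and 0 in male p53 R172H (20.2% and 20.5%), 3 and 3 in male p53 Y217C (34.9% and 35.6%) and 3 and 0 in female p53 Y217C (28% and 28.7%). Their median log2 difference was highest in female p53 R172H, at 2.13, and lowest in male p53 Y217C, at 0.10. *Mmp13* is among the 6 rises in female p53 R172H, the line through which it entered the table. It had to rise there, so this count and median are a description.

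*Timp3* showed the largest difference from p53 KO among the members that averaged above 1 RPKM (CPM per kilobase of exon) over the lines. TIMP-3 binds to the matrix and, besides MMPs, inhibits ADAM17, ADAM10 and the proteoglycanases. *Timp3* stood at 182, 196 and 213 CPM in male p53 KO, 1932, 2231 and 2328 CPM in male p53 Y202C and 1098, 1018 and 1131 CPM in male p53 Y217C. In female cells it stood at 160, 182 and 173 CPM in p53 KO, 1279, 1187 and 1035 CPM in p53 R172H and 769, 709 and 821 CPM in p53 Y202C. Each library of these 4 mutant lines held at least 709 CPM, and no other library held more than 213 CPM. *Timp3* rose by 3.46 ± 0.09 in male p53 Y202C (adjusted p = 9.07e-20), 2.46 ± 0.09 in male p53 Y217C (adjusted p = 1.48e-17), 2.77 ± 0.09 in female p53 R172H (adjusted p = 3.35e-18) and 2.16 ± 0.09 in female p53 Y202C (adjusted p = 3.52e-16). The male p53 R172H libraries held 145, 171 and 166 CPM and the female p53 Y217C libraries 177, 178 and 187 CPM. The former were all below male p53 KO (log2 -0.30, adjusted p = 0.00677, and 0.0502 without male p53 R172H replicate 1), and the latter overlapped female p53 KO (log2 0.07, adjusted p = 0.471). The same mutation therefore stood on both sides of the gap, R172H with a high female and a low male line and Y217C with a high male and a low female line.

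*Timp1* and *Timp2* moved within a narrower range. *Timp1*, the secreted inhibitor induced in reactive astrocytes, rose in female p53 Y202C (333, 409 and 350 against 190, 201 and 191 CPM, 0.91 ± 0.07, adjusted p = 8.4e-11), in female p53 R172H (log2 0.65, adjusted p = 1.83e-08) and in male p53 Y217C (log2 0.27, adjusted p = 0.00197). It fell in female p53 Y217C (log2 -0.29, adjusted p = 0.00142) and in male p53 Y202C (log2 -0.23, adjusted p = 0.00498). Its value in male p53 R172H was -0.18 (adjusted p = 0.0445, up to 0.218 with 1 library left out). *Timp2*, which inhibits MMPs and also helps MMP14 to activate proMMP2, rose in male p53 Y217C (log2 0.45, adjusted p = 3.33e-07) and male p53 R172H (log2 0.34, adjusted p = 5.65e-05) and fell in female p53 Y217C (log2 -0.24, adjusted p = 0.00148). In the other 3 mutant lines its differences were 0.10 (male p53 Y202C), 0.00 (female p53 R172H) and -0.03 (female p53 Y202C), none past the threshold. Male p53 Y217C was the line in which all 3 TIMPs rose and 0 fell (34.9% and 35.6% of all genes). The rises and falls were 2 and 0 in female p53 R172H (34.4% and 35.3%) and in female p53 Y202C (34.3% and 34.3%). They were 1 and 1 in male p53 Y202C (37.6% and 35.4%), 1 and 2 in male p53 R172H (20.2% and 20.5%) and 0 and 2 in female p53 Y217C (28% and 28.7%).

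**Figure D2:**
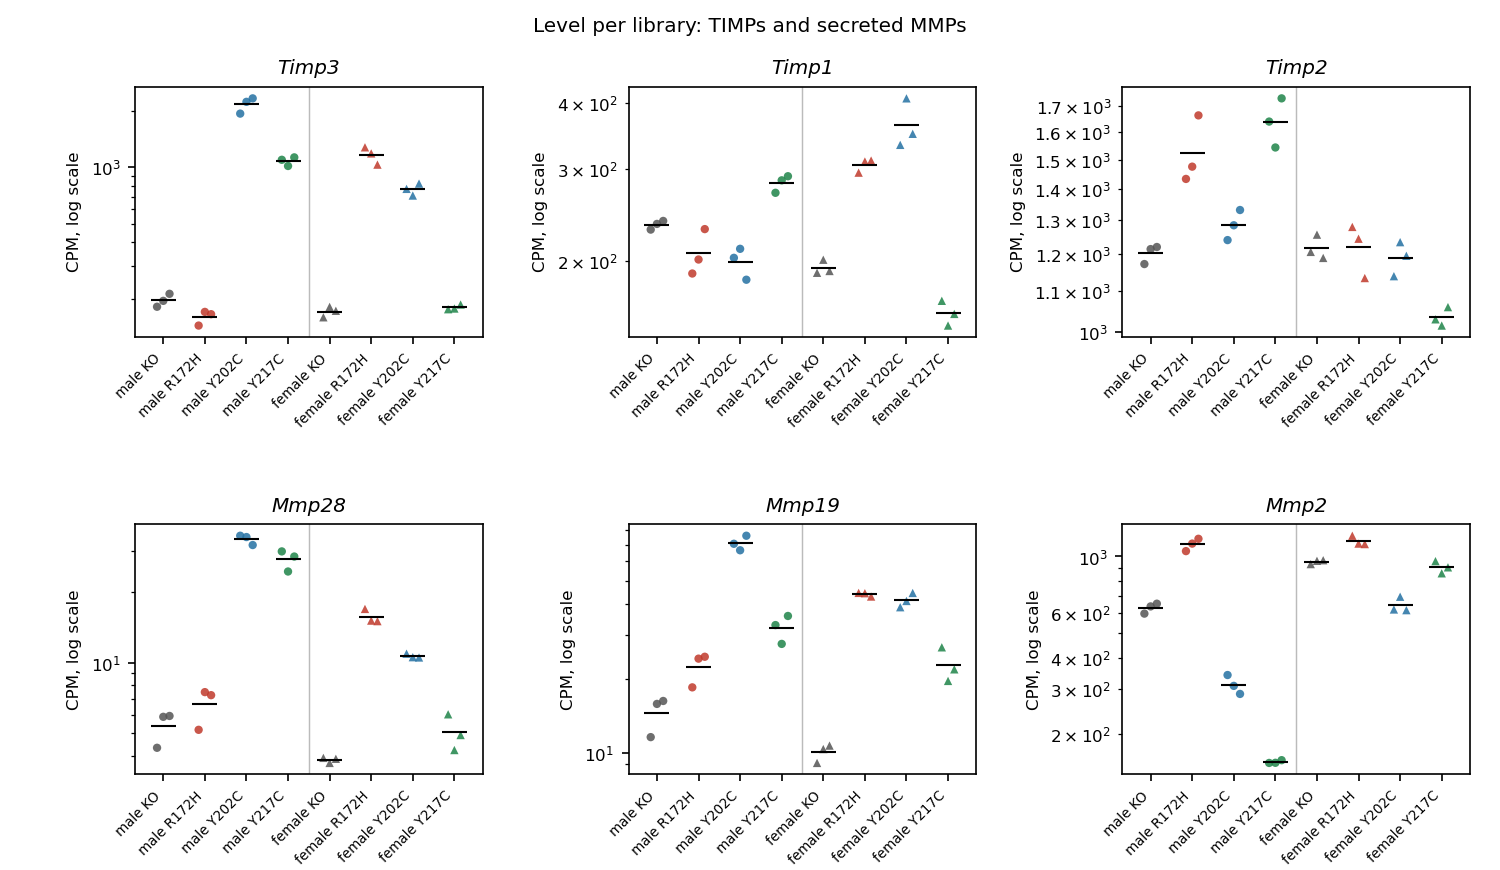
CPM (log scale) of 3 TIMPs and 3 secreted MMPs in each of the 3 libraries (points, circles male and triangles female) of the 8 lines, with a bar at the mean of the line. *Timp3* is at 709 CPM or more in 4 mutant lines and at 213 CPM or less in the other 4 lines, while *Timp2* stays between 1015 and 1732 CPM in all 24 libraries.

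The membrane-bound MMPs were lower in male p53 Y202C, where 7 of 7 passed the threshold downwards (35.4% of all genes) with a median of -1.35. Of these, *Mmp15* (adjusted p = 0.0306) and *Mmp24* (adjusted p = 0.0115) did not pass without male p53 Y202C replicate 1 (0.191 and 0.059), nor *Mmp15* without male p53 KO replicate 1 or 2 (0.0556 and 0.0794). The corresponding rises and falls were 2 and 4 in male p53 Y217C (34.9% and 35.6% of all genes), 2 and 4 in female p53 R172H (34.4% and 35.3%), 1 and 4 in female p53 Y217C (28% and 28.7%), 2 and 3 in female p53 Y202C (34.3% and 34.3%) and 1 and 2 in male p53 R172H (20.2% and 20.5%). *Mmp24* is among the 2 rises in female p53 Y202C, the line through which it entered the table. It had to rise there, so these counts are a description. *Mmp14*, MT1-MMP, the surface collagenase that activates proMMP2, stood at 440, 475 and 482 CPM in male p53 KO and 298, 292 and 264 CPM in male p53 Y202C, a difference of -0.71 ± 0.05 (adjusted p = 2.25e-11). It rose in female p53 R172H (668, 625 and 679 against 504, 512 and 501 CPM, 0.38 ± 0.05, adjusted p = 1.11e-06) and female p53 Y202C (log2 0.18, adjusted p = 0.00437) and fell in female p53 Y217C (log2 -0.47, adjusted p = 7.75e-08). In male p53 Y217C the difference was 0.00 (adjusted p = 0.975), and in male p53 R172H it was 0.14 (adjusted p = 0.0371, up to 0.183 with 1 library left out).

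*Mmp15* and *Mmp23* each set 1 line apart from the rest. *Mmp15*, MT2-MMP, stood at 30.7, 28.7 and 27.8 CPM in male p53 Y217C against 3.57, 3.68 and 3.43 CPM in male p53 KO, a rise of 3.03 ± 0.14 (adjusted p = 1.74e-15). In female cells it fell, from 5.86, 5.51 and 5.32 CPM in p53 KO to 0.583, 0.906 and 0.93 CPM in p53 R172H (-2.77 ± 0.15, adjusted p = 9.85e-14) and 1.4, 1.02 and 1.09 CPM in p53 Y202C (-2.26 ± 0.16, adjusted p = 8.16e-12). The lowest male p53 Y217C library was above every library of every other line. *Mmp17*, MT4-MMP, which has a GPI anchor, also rose in male p53 Y217C (log2 1.82, adjusted p = 2.23e-11) and fell in male p53 Y202C (log2 -1.59) and female p53 R172H (log2 -0.85). *Mmp23*, a short MMP that sits in the membrane by its amino terminus, rose in female p53 R172H, from 10.3, 10.5 and 11 to 71.5, 61.4 and 69.0 CPM (2.67 ± 0.11, adjusted p = 4.24e-16). In the other 5 mutant lines *Mmp23* fell, most in male p53 Y217C (2.36, 2.04 and 2.17 against 11.8, 15.2 and 15.9 CPM, -2.71 ± 0.13, adjusted p = 2.16e-15) and male p53 Y202C (2.96, 2.64 and 2.93 CPM, -2.33 ± 0.12, adjusted p = 2.15e-14). *Mmp16*, MT3-MMP, a matrix and proteoglycan sheddase of the nervous system, fell in all 6, between -0.51 in female p53 Y202C and -1.95 in male p53 Y217C. *Mmp25*, MT6-MMP, best known from leukocytes, fell in female p53 R172H from 1.68, 1.58 and 1.66 to 0.223, 0.512 and 0.770 CPM (log2 -1.68, adjusted p = 1.32e-05). It also fell in male p53 Y202C and fell most in male p53 Y217C (log2 -2.22). In female p53 Y217C it rose (log2 0.62, adjusted p = 0.0453, up to 0.112 with 1 library left out).

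The broad sheddases *Adam10* and *Adam17* changed little. *Adam10*, which releases the ectodomains of Notch receptors, cadherins and the amyloid precursor protein, stood between 136 and 215 CPM in all 24 libraries. It rose in male p53 R172H (log2 0.41, adjusted p = 2.19e-05), male p53 Y202C (log2 0.23, adjusted p = 0.00308), male p53 Y217C (log2 0.40, adjusted p = 6.09e-06) and female p53 Y217C (log2 0.50, adjusted p = 6.44e-07). Its difference was 0.14 in female p53 Y202C (adjusted p = 0.0519) and 0.17 in female p53 R172H (adjusted p = 0.0239, up to 0.122 with 1 library left out). *Adam17*, the TNF and EGF receptor ligand converting enzyme, fell in male p53 Y202C (log2 -0.34, adjusted p = 7.4e-07) and female p53 R172H (log2 -0.36, adjusted p = 3.49e-07). In the other mutant lines its values lay between -0.11 (female p53 Y217C) and 0.09 (male p53 Y217C), none past the threshold.

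Other ADAMs with an active site changed far more. *Adam19*, meltrin beta, which sheds neuregulins, fell in all 6 mutant lines. It stood at 207, 197 and 201.6 CPM in male p53 KO and 26.4, 29.5 and 29.7 CPM in male p53 Y217C, a difference of -2.82 ± 0.06 (adjusted p = 2.29e-21). In female cells it stood at 307, 299 and 291 CPM in p53 KO and between 100 and 128 CPM in the 9 mutant libraries. The smallest fall was that of male p53 R172H (log2 -0.20, adjusted p = 0.00701). *Adam33*, a gene of mesenchymal cells, fell in the 3 male mutant lines. Male p53 KO held 5.12, 6.13 and 6.19 CPM, and male p53 R172H (2.24, 2.55 and 2.19 CPM), male p53 Y202C (1.4, 0.948 and 0.427 CPM) and male p53 Y217C (0.312, 0.479 and 0.335 CPM) were all lower, with differences of -1.33 ± 0.22, -2.60 ± 0.24 and -3.95 ± 0.28 (adjusted p = 4.65e-05, 1.08e-09 and 7.18e-12). Female p53 R172H, with 13.8, 11.8 and 11.4 against 3.46, 3.45 and 3.57 CPM, was higher by 1.82 ± 0.22 (adjusted p = 8.46e-08), and female p53 Y202C differed by -0.61 (adjusted p = 0.0214, but 0.0897 without its replicate 1 and 0.111 without its replicate 2). *Adam12*, which cleaves IGF binding proteins, fell most in female p53 R172H (log2 -1.28, adjusted p = 1.38e-15) and male p53 Y217C (log2 -1.04) and rose in female p53 Y202C (log2 0.52). *Adam8*, known from inflamed tissue and from glioma, rose in the 3 female mutant lines (log2 1.26 with R172H, 1.29 with Y202C and 0.61 with Y217C) and in male p53 R172H. It fell in male p53 Y202C and in male p53 Y217C (log2 -0.37 in the latter, adjusted p = 0.0282, up to 0.0848 with 1 library left out). The 8 members of this group counted 1 rise and 6 falls in male p53 Y217C (34.9% and 35.6% of all genes), 3 and 5 in male p53 Y202C (37.6% and 35.4%), 4 and 4 in female p53 R172H (34.4% and 35.3%), 3 and 2 in male p53 R172H (20.2% and 20.5%), 2 and 3 in female p53 Y217C (28% and 28.7%) and 2 and 3 in female p53 Y202C (34.3% and 34.3%).

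The brain ADAMs *Adam11*, *Adam22* and *Adam23*, which have lost the catalytic site and bind LGI proteins or integrins, gave 1 rise over the 6 comparisons, that of *Adam22* in female p53 R172H (log2 0.56, adjusted p = 0.00280). Falls were 2 in male p53 R172H (20.5% of all genes), 2 in male p53 Y202C (35.4%) and 2 in male p53 Y217C (35.6%). Female lines had 1 with R172H (35.3%), 2 with Y202C (34.3%) and 3 with Y217C (28.7%). Of all genes, 20.2% (male p53 R172H) to 37.6% (male p53 Y202C) rose in these 6 comparisons. Both falls in male p53 R172H were fragile. *Adam11* differed there by -0.58 (adjusted p = 0.0265, up to 0.132 with 1 library left out). *Adam23* differed there by -0.58 (adjusted p = 0.0241, up to 0.0757 with 1 library left out). *Adam23* fell in all 6, with 4.15, 4.33 and 4.51 CPM in male p53 KO and 4.36, 5.10 and 4.94 CPM in female p53 KO. The largest fall was in male p53 Y217C (log2 -2.19), followed by female p53 Y202C (0.765, 1.33 and 1.28 CPM, -2.08 ± 0.22, adjusted p = 1.29e-08) and, further down the order, female p53 R172H (1.81, 1.85 and 1.04 CPM, -1.63 ± 0.21, adjusted p = 2.16e-07). *Adam11* fell in male p53 Y202C, from 1.20, 1.30 and 1.02 to 0.310, 0.284 and 0.275 CPM (-2.0 ± 0.23, adjusted p = 3.79e-08). *Adam22* fell in female p53 Y217C, from 5.85, 6.44 and 6.05 to 3.01, 1.97 and 2.26 CPM (-1.34 ± 0.17, adjusted p = 5.37e-07). All of these libraries were below all libraries of their control. Of the 2 other ADAMs, *Adam5* was over 1 CPM only in male p53 Y217C (2.65, 2.29 and 2.92 against 0.314, 0.366 and 0.381 CPM), and *Adam1a* stayed at or below 1.56 CPM throughout.

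Of the 6 proteoglycanases in the table, *Adamts8* and *Adamts15* entered it through 1 line each, so the counts of this group are a description. In female p53 R172H 5 rose and 0 fell (34.4% and 35.3% of all genes), and in female p53 Y202C 4 rose and 2 fell (34.3% and 34.3%), with medians of 1.91 and 1.81. In male p53 R172H 1 rose and 4 fell (20.2% and 20.5%), and in male p53 Y202C 0 rose and 4 fell (37.6% and 35.4%), with medians of -0.66 and -0.42. Male p53 Y217C had 2 rises and 3 falls (34.9% and 35.6%) and female p53 Y217C 2 of each (28% and 28.7%). *Adamts9*, which acts in basement membranes and at the base of cilia, stood at 2.91, 3.14 and 3.22 CPM in male and 1.38, 1.06 and 1.0 CPM in female p53 KO. It stood at 43.4, 39.8 and 40.7 CPM in female p53 R172H, 19.3, 15.8 and 18.7 CPM in male p53 Y217C, 12, 9.98 and 10.7 CPM in female p53 Y202C and 1.04, 1.4 and 1.07 CPM in male p53 R172H. The first 3 of these lines were wholly above both p53 KO lines, and male p53 R172H was below its own. *Adamts9* rose by 5.16 ± 0.13 in female p53 R172H (adjusted p = 5.64e-20), 3.24 ± 0.13 in female p53 Y202C (adjusted p = 3.07e-16), 2.53 ± 0.12 in male p53 Y217C (adjusted p = 1.57e-15) and 1.45 ± 0.14 in female p53 Y217C (adjusted p = 3.31e-09). It fell in male p53 R172H (-1.42 ± 0.13, adjusted p = 1.05e-08) and male p53 Y202C (log2 -0.42).

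*Adamts15*, an aggrecanase and versicanase, was over 1 CPM in all libraries of female p53 R172H only, with 24.7, 20.1 and 16.8 CPM against 0.187, 0.333 and 0.116 CPM in female p53 KO. The difference was 6.64 ± 0.31 (adjusted p = 3.45e-15). Female p53 Y202C held 0.989, 0.989 and 1.70 CPM and rose as well (log2 2.60), whereas female p53 Y217C held 0.0470, 0.0254 and 0.0296 CPM and fell (log2 -2.51 ± 0.62, adjusted p = 0.00144). The fall of *Adamts15* in male p53 R172H (log2 -1.08, adjusted p = 0.0228) was lost in limma (adjusted p = 0.168). It was also lost without male p53 KO replicate 3 (0.118) and without male p53 R172H replicate 1 (0.148). *Adamts8* was highest in male p53 Y217C (1.70, 1.82 and 1.45 CPM) and fell in male p53 R172H, where it stood at 0.0387, 0.0641 and 0.0255 CPM against 0.242, 0.270 and 0.236 CPM (-2.52 ± 0.55, adjusted p = 0.000790). Outside these lines both members stood near 1 CPM or below in most lines.

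The abundant proteoglycanases changed by less. *Adamts5*, the main aggrecanase of cartilage, stood at 409, 416 and 421 CPM in female p53 R172H and 321, 337 and 331 CPM in female p53 Y217C against 150, 143 and 142 CPM in female p53 KO. It rose by 1.52 ± 0.07 (adjusted p = 5.36e-15) and 1.19 ± 0.07 (adjusted p = 2.02e-12). In male p53 Y217C *Adamts5* fell from 141, 150 and 158 to 64.6, 66.2 and 64.1 CPM (-1.21 ± 0.07, adjusted p = 3.63e-13), and in female p53 Y202C it fell by less (log2 -0.30, adjusted p = 0.000853). None of these groups overlapped. Its value in male p53 Y202C was -0.20 (adjusted p = 0.0144, but 0.078 without male p53 KO replicate 3 and 0.102 without male p53 Y202C replicate 2) and in male p53 R172H 0.08 (adjusted p = 0.384). *Adamts1*, which cleaves aggrecan and versican and binds VEGF, rose in female p53 Y202C (298, 309 and 280 against 137, 151 and 151 CPM, 1.01 ± 0.08, adjusted p = 3.78e-11) and female p53 R172H (log2 0.73, adjusted p = 7.89e-09). It fell in male p53 Y217C (51.6, 56.1 and 51.6 against 108, 103 and 109 CPM, -1.01 ± 0.08, adjusted p = 3.42e-11) and male p53 Y202C (log2 -0.42, adjusted p = 3.07e-05). In male p53 R172H *Adamts1* differed by -0.24 (adjusted p = 0.0137, but 0.0983 without male p53 R172H replicate 1), and in female p53 Y217C by 0.11 (adjusted p = 0.212).

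*Adamts4*, aggrecanase-1, was the member of this branch that did not rise in female p53 R172H (log2 0.07, adjusted p = 0.352). It fell in male p53 Y202C from 39.5, 42.2 and 44.1 to 16.2, 15.6 and 14.8 CPM (-1.43 ± 0.07, adjusted p = 2.69e-15), with no overlap. The falls in male p53 Y217C (log2 -0.46), female p53 Y202C (log2 -0.43) and female p53 Y217C (log2 -0.38) were smaller, and male p53 R172H rose (log2 0.43).

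**Figure D3:**
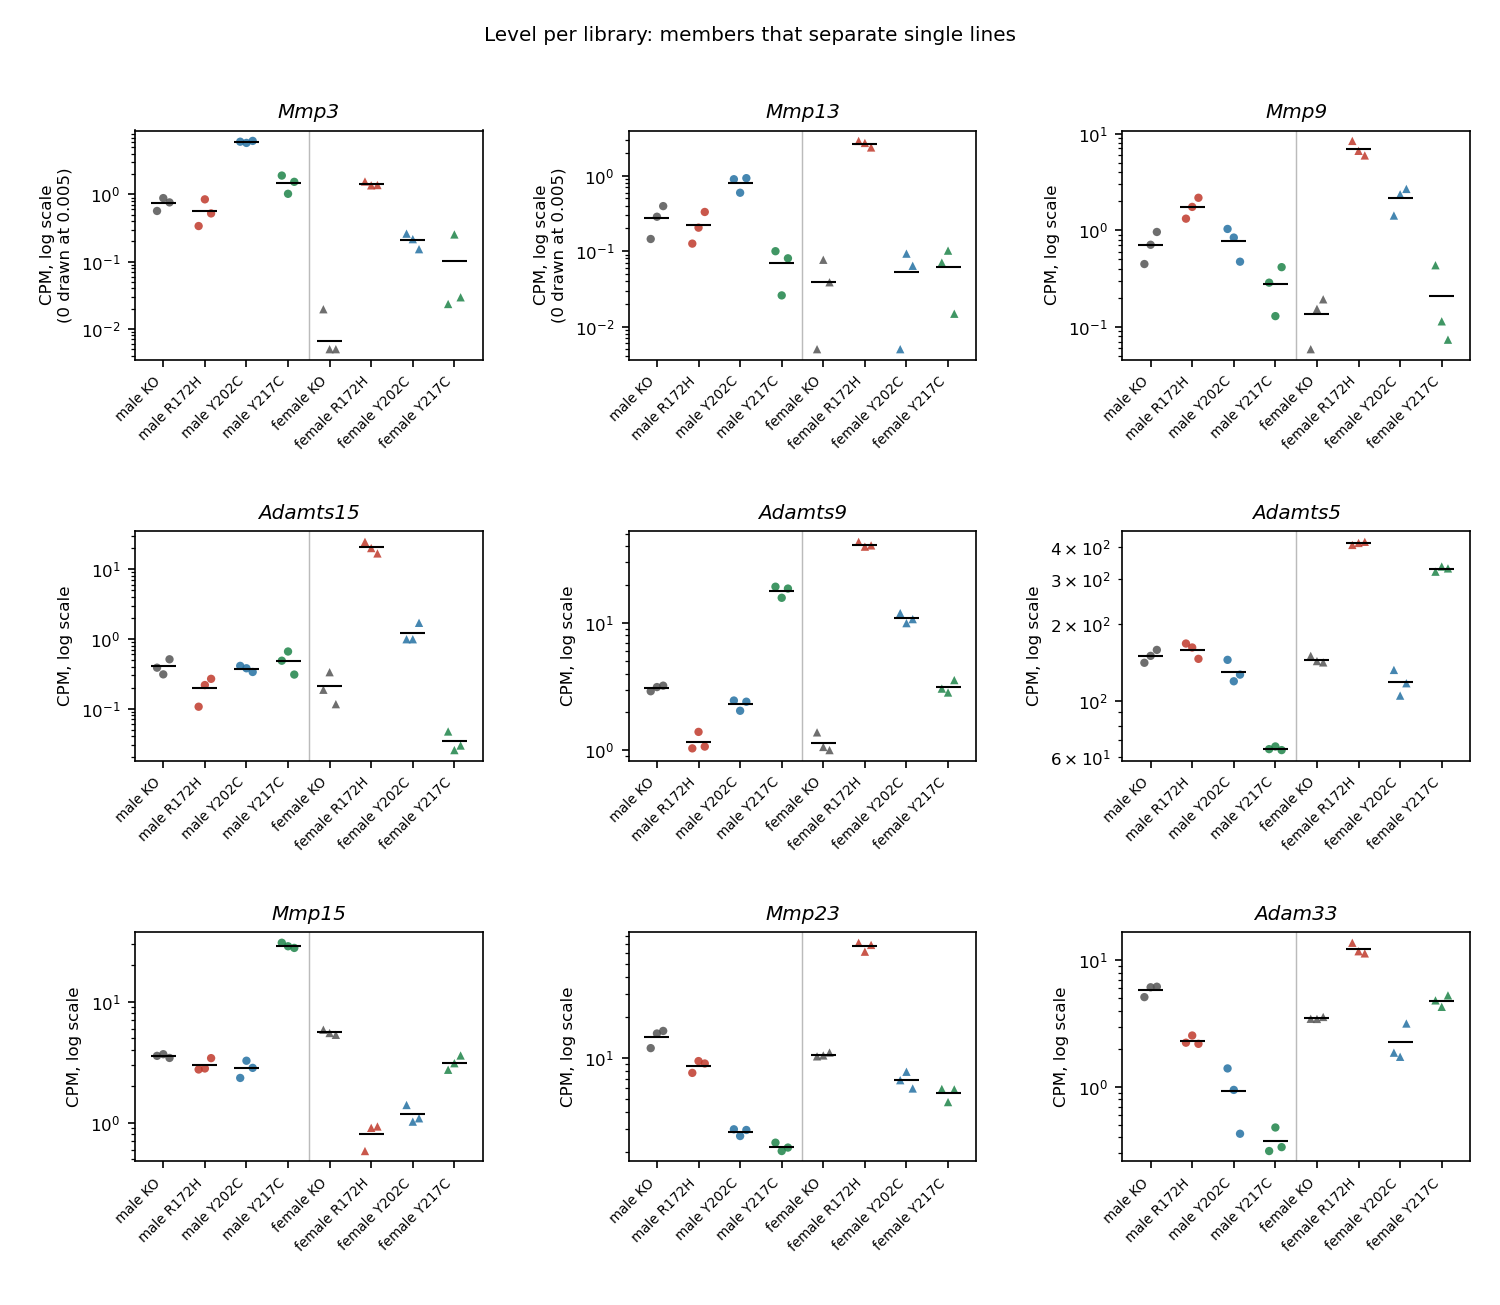
CPM (log scale, with 0 drawn at 0.005 where a panel says so) of 9 members in each of the 3 libraries (points, circles male and triangles female) of the 8 lines, with a bar at the mean of the line. Female p53 R172H is the highest line for *Mmp13*, *Mmp9*, *Adamts15*, *Adamts9*, *Adamts5*, *Mmp23* and *Adam33*, male p53 Y202C for *Mmp3*, and male p53 Y217C for *Mmp15*.

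Procollagen N-proteinases remove the amino propeptide of fibrillar procollagens. *Adamts14* fell in 5 of the 6 mutant lines, most in male p53 Y217C (17.3, 19.3 and 18.7 against 83.5, 78.1 and 78.6 CPM, -2.12 ± 0.09, adjusted p = 3.62e-16), and its difference in male p53 R172H was -0.06 (adjusted p = 0.638). *Adamts2* rose in the 3 female mutant lines (log2 0.58 with R172H, 0.66 with Y202C and 0.79 with Y217C) and fell in male p53 R172H (log2 -0.59) and male p53 Y202C (log2 -0.29). *Adamts3* was present at a clear level in male p53 Y217C only, at 2.62, 2.54 and 3.05 CPM against 0.169, 0.0716 and 0.229 CPM (4.12 ± 0.46, adjusted p = 2.65e-08). It entered the table through that line and so had to differ there. Male p53 R172H lay below the floor of 3 counts a library, so that *Adamts3* was at least 4.44-fold lower there than in male p53 KO, and in female p53 R172H at least 2.06-fold lower than in female p53 KO (adjusted p = 0.0325, up to 0.120 with 1 library left out). Of the 7 fibroblast markers, all in the table, 6 rose and 0 fell in female p53 R172H (34.4% and 35.3% of all genes). The split was 4 and 0 in female p53 Y217C (28% and 28.7%) and 7 and 0 in female p53 Y202C (34.3% and 34.3%). In male p53 R172H it was 2 and 2 (20.2% and 20.5%). Male p53 Y202C had 2 and 4 (37.6% and 35.4%) and male p53 Y217C 0 and 6 (34.9% and 35.6%). The summed level of these markers, nearly all of it *Col1a1* and *Col1a2*, ranged from 7907 to 9702 CPM in male p53 Y202C, the lowest line, and from 35300 to 41260 CPM in female p53 R172H, the highest. *Pdgfra* did not follow the sum in male p53 R172H, where it averaged 3.17 against 20.2 CPM in male p53 KO while the sum averaged 31990 against 27820 CPM. The part of these markers in the differences of the matrix genes was not tested.

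The remaining ADAMTS proteases are grouped here for want of a shared substrate. All 5 fell in male p53 Y202C (35.4% of all genes) and all 5 in male p53 Y217C (35.6%), with medians of -1.36 and -0.49, although *Adamts7* did not pass in the latter without male p53 Y217C replicate 2 (adjusted p = 0.0532). The rises and falls were 3 and 0 in male p53 R172H (20.2% and 20.5%), 2 and 1 in female p53 R172H (34.4% and 35.3%), 0 and 3 in female p53 Y217C (28% and 28.7%) and 2 and 3 in female p53 Y202C (34.3% and 34.3%). Among the rises in male p53 R172H, that of *Adamts7* was fragile (log2 0.27, adjusted p = 0.0193, up to 0.121 with 1 library left out). *Adamts16*, which cleaves fibronectin, showed the largest fall of any member in female p53 Y217C, from 1.06, 1.35 and 1.16 to 0.0352, 0.0762 and 0.0591 CPM (-4.36 ± 0.35, adjusted p = 3.11e-10). It fell in female p53 Y202C too (0.317, 0.340 and 0.473 CPM, -1.63 ± 0.27, adjusted p = 9.32e-06). *Adamts12*, which is linked to cartilage oligomeric matrix protein, rose in female p53 Y202C (log2 1.05) and male p53 R172H (log2 0.68). *Adamts6*, *Adamts7* and *Adamts10* had their largest differences in male cells, *Adamts6* in p53 Y217C (log2 -2.08) and the other two in p53 Y202C (log2 -1.64 and -1.36).

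ADAMTS-like proteins bind fibrillin microfibrils and lack protease activity. *Adamtsl4* rose in female p53 Y202C (151, 176 and 156 against 21.7, 24.9 and 28.6 CPM, 2.68 ± 0.10, adjusted p = 3.63e-17), male p53 Y217C (165, 158 and 165 against 32.1, 36.9 and 39.5 CPM, 2.17 ± 0.09, adjusted p = 5.01e-16) and female p53 R172H (log2 1.92), with no overlap of these lines with their controls. *Adamtsl2*, which binds the TGF-beta binding protein LTBP1, stood at 4.90, 3.20 and 3.91 CPM in male p53 Y217C against 0.0967, 0.143 and 0.114 CPM in male p53 KO (5.05 ± 0.40, adjusted p = 5.3e-11). It entered the table through male p53 Y217C and so had to differ there. *Adamtsl5* rose in 5 mutant lines and fell in male p53 Y217C (log2 -1.47), and *Adamtsl1* showed the reverse, 5 falls and a rise in male p53 Y217C (log2 1.08). *Adamtsl3* was the member of this group with the highest level per length.

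The male and female p53 KO lines, which differ in sex and in culture of origin, already differed in 26 members. Of these, 19 were higher in the male line, against 17.2% of all genes, and 7 in the female line, against 13.8%. Sex and culture cannot be told apart, since each sex is 1 culture. *Mmp3* was at least 22.8-fold higher in the male p53 KO line than the floor of the female one, and *Mmp13* was higher by 2.95 ± 0.63 (adjusted p = 0.000841), with levels below 0.4 CPM in both lines. *Mmp2* (log2 -0.60, male minus female, adjusted p = 4.82e-08) and *Mmp15* (log2 -0.65, adjusted p = 0.000640) were lower in the male p53 KO line.

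Between the p53 R172H lines, 17 members were higher in the male line and 19 in the female one, against 32.4% and 29.7% of all genes. *Adamts15* (-6.74 ± 0.32, male minus female, adjusted p = 4.16e-15) and *Adamts9* (-5.15 ± 0.13, adjusted p = 5.09e-20) were the furthest towards the female line. *Mmp15* (1.87 ± 0.16, adjusted p = 2.71e-10) and *Adam12* (1.33 ± 0.06, adjusted p = 7.15e-16) were the furthest towards the male line. In p53 Y202C, 15 members were higher in the male line (background 37.7%) and 28 in the female line (background 37.7%). The largest of these were *Mmp3* (4.87, adjusted p = 2.07e-10) and *Mmp13* (3.83, adjusted p = 2.3e-06) towards the male line, and *Mmp24*, MT5-MMP of the nervous system (-3.07, adjusted p = 3.55e-07), and *Adamtsl2* (-2.62, adjusted p = 5.66e-05) towards the female line. In p53 Y217C, 22 were higher in the male line (background 33.4%) and 20 in the female line (background 34.6%). *Adamts3* (6.24, adjusted p = 2.23e-09) and *Adamts8* (4.96, adjusted p = 1.33e-09) led towards the male line, and *Adam33* (-3.67, adjusted p = 3.19e-11) and *Mmp25* (-2.87, adjusted p = 1.23e-08) towards the female line. Some of these members entered the table through the line where they were high and so had to differ in the comparison named. They are *Adamts15* in p53 R172H, *Mmp24* in p53 Y202C, and *Adamts3* and *Adamts8* in p53 Y217C. All 3 TIMPs were higher in the male than in the female p53 Y217C line (33.4% of all genes), *Timp3* by 2.59 ± 0.09 (adjusted p = 4.6e-18), *Timp1* by 0.83 and *Timp2* by 0.66.

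Whether a mutation moved a member differently in the male and the female line was tested as an interaction, the male difference from p53 KO minus the female one. It passed the threshold for 38 members with R172H (58% of all genes), 35 with Y202C (68%) and 38 with Y217C (54.8%). The share of members in p53 Y202C (71.4%) was close to that of all genes. In p53 R172H the largest values that the count rule allowed were those of *Mmp3* (-7.81, which leans on a female p53 KO line at the floor), *Adamts15* (-7.72 ± 0.47, adjusted p = 1.21e-12), *Adamts9* (-6.58 ± 0.18, adjusted p = 5.05e-19) and *Mmp13* (-6.57 ± 0.74, adjusted p = 5.57e-08), which rose in the female and not in the male line. For *Timp3* the interaction was -3.06 ± 0.12 in p53 R172H (adjusted p = 3.06e-16), 1.30 ± 0.12 in p53 Y202C (adjusted p = 8.58e-10) and 2.39 ± 0.12 in p53 Y217C (adjusted p = 2.32e-14). The p53 Y202C value of *Mmp9* was -3.85 ± 0.63 (adjusted p = 8.93e-06), that of *Adamts9* -3.66, that of *Adamts8* -3.65 and that of *Adamtsl2* -3.62. In p53 Y217C, *Adamts3* reached 4.88 ± 1.07 (adjusted p = 0.000433), *Mmp15* 3.86 ± 0.19 (adjusted p = 2.46e-14) and *Adamtsl2* 3.74 towards the male line, and *Adam33* -4.41 ± 0.36 (adjusted p = 1.79e-10) towards the female line. *Adamts15* and *Mmp13* with R172H, and *Adamts3* and *Adamtsl2* with Y217C, entered the table through the high line of that mutation and had to differ. *Mmp2* had interactions of 0.56, -0.44 and -1.94 in p53 R172H, p53 Y202C and p53 Y217C, all past the threshold.

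**Figure D4:**
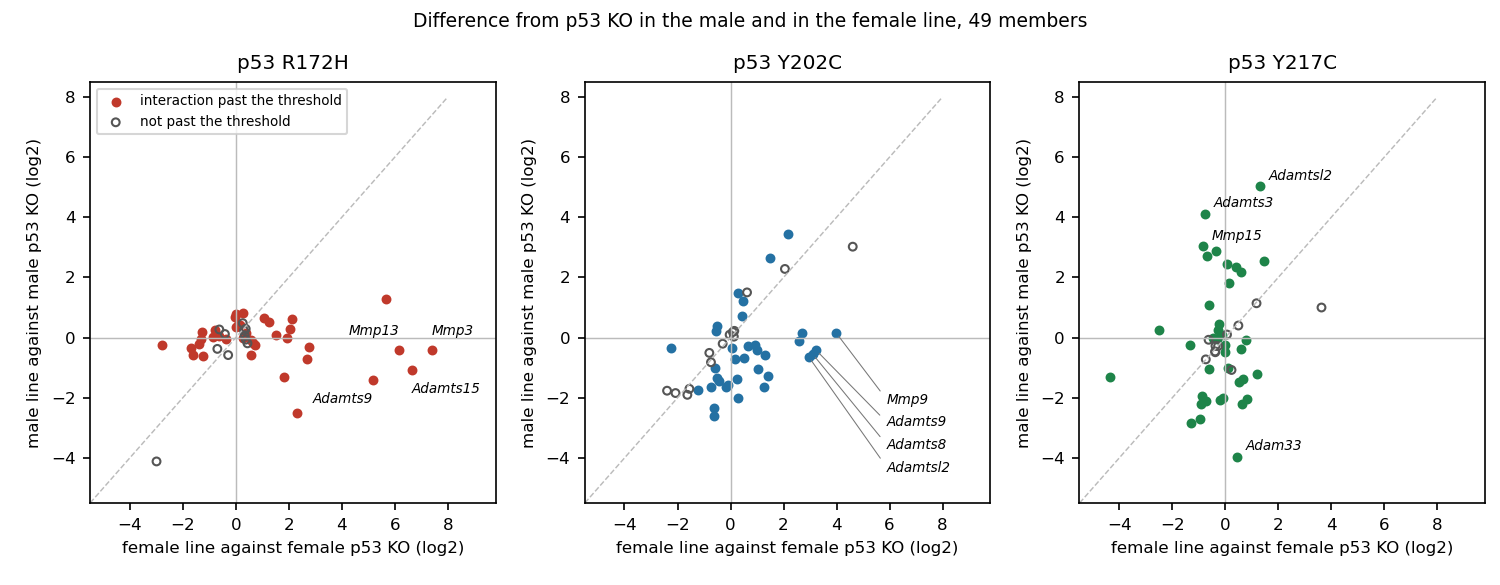
Log2 difference from p53 KO of each of the 49 members in the female line (x axis) and in the male line (y axis) for each mutation, filled where the interaction passed the threshold and with the members of the largest interactions named. In p53 R172H the named members lie far to the right and near 0 or below on the male axis, and in p53 Y217C *Adamtsl2*, *Adamts3* and *Mmp15* lie high on the male axis (*Mmp3* in p53 R172H is fitted against a control at the floor).

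Regulators of these proteases were read from a list of 19 genes, of which 18 are in the table. In female p53 R172H 11 rose and 7 fell, against 34.4% and 35.3% of all genes, so that each of the 18 passed the threshold. The other mutant lines counted 9 rises and 7 falls in female p53 Y202C (34.3% and 34.3%), 6 and 7 in male p53 Y202C (37.6% and 35.4%), 5 and 7 in male p53 Y217C (34.9% and 35.6%), 3 and 10 in female p53 Y217C (28% and 28.7%) and 3 and 4 in male p53 R172H (20.2% and 20.5%). *Reck*, a membrane inhibitor of MMP2, MMP9 and MMP14, rose most in female p53 R172H (log2 1.84) and female p53 Y202C (log2 1.12). *Serpine2*, an inhibitor of plasmin and thrombin made by glia, rose in the same lines (log2 6.53 and 2.43) and fell in male p53 Y202C (log2 -2.18), male p53 Y217C (-1.03) and female p53 Y217C (-1.73). *Plau*, the urokinase that starts the plasmin cascade and so activates proMMPs, fell in all 6, most in male p53 Y217C (log2 -3.63). *Rhbdf2*, which brings ADAM17 to the cell surface, rose in female p53 R172H (log2 1.48), male p53 R172H, male p53 Y202C and female p53 Y217C. It fell in male p53 Y217C (log2 -1.78) and female p53 Y202C (log2 -1.76). *Tspan15*, a partner that steers ADAM10, rose in male p53 Y202C (log2 2.16) and male p53 Y217C (log2 2.96) and fell in the other 4 lines, most in female p53 Y202C (log2 -2.79). The proprotein convertase *Pcsk5* fell in 4 lines, most in female p53 Y217C, whose libraries held 4, 2 and 0 counts against 2.11, 2.83 and 2.72 CPM in female p53 KO.

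Of 8 proteoglycan genes listed as substrates, 5 are in the table. Aggrecan (*Acan*) rose in male p53 R172H (log2 1.80), female p53 R172H (1.54) and female p53 Y202C (0.70), and fell in male p53 Y202C (-4.09), male p53 Y217C (-3.55) and female p53 Y217C (-1.37). Versican (*Vcan*) fell in male p53 Y202C (log2 -1.31), male p53 Y217C (-1.94) and female p53 Y202C (-0.31). All 5 fell in male p53 Y217C (35.6% of all genes). Decorin (*Dcn*), which is also in the fibroblast marker list, rose in all 3 female mutant lines, most in p53 R172H (log2 5.59). It also rose in male p53 Y202C and fell in male p53 Y217C.

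Levels of different members were compared per length, as the mean over the 8 lines of the CPM divided by the exon length in kilobases (RPKM). *Timp2* (331 RPKM), *Timp1* (274), *Mmp2* (218), *Timp3* (90.4), *Adam9* (86.5) and *Mmp14* (80.3) had the highest levels. *Adam10* (34.9 RPKM) and *Adamtsl3* (34.3 RPKM) followed. The lowest were *Adamts3* (0.0703 RPKM) and *Adamtsl2* (0.0794 RPKM). Within the lines, *Timp1* and *Timp2* were among the 4 members with the highest levels in 8 of 8 lines. *Timp3* was so in 3 lines and stood just below *Mmp14* in female p53 Y202C, and in the other 4 lines, at 19.7 to 24.2 RPKM, it lay below *Adam9*, *Mmp14* and *Adam10*. By contrast, *Mmp3* (0.736 RPKM), *Mmp9* (0.458 RPKM) and *Mmp13* (0.196 RPKM) averaged below 1 RPKM. Large fold changes of these 3 MMPs are therefore changes between low levels of RNA.

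**Figure D5:**
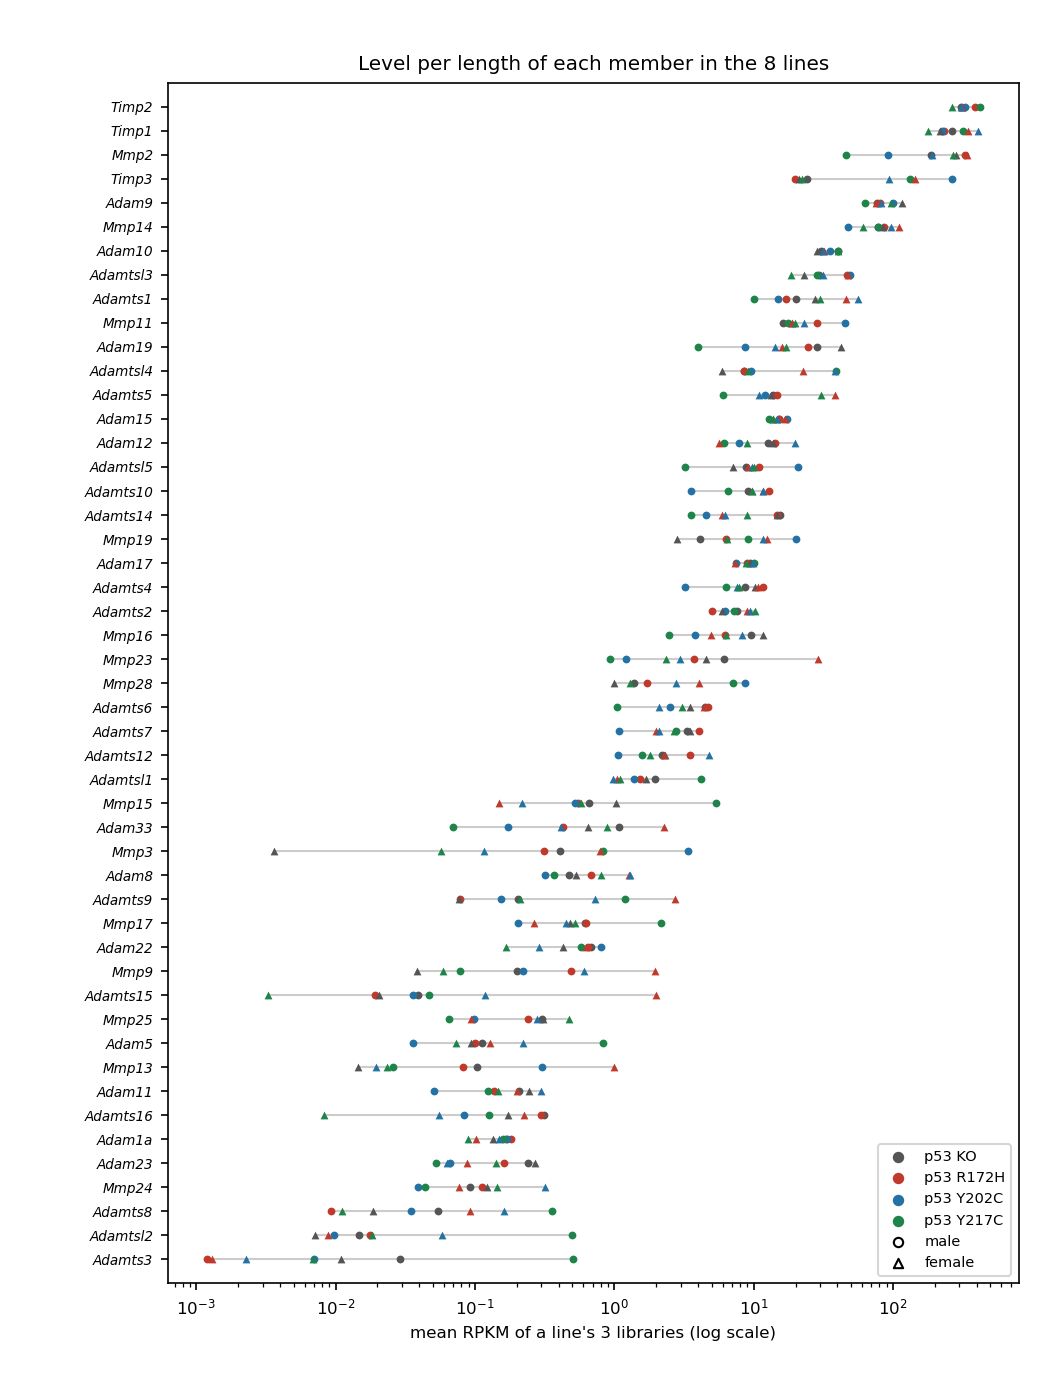
Mean RPKM of the 3 libraries of each line (log scale) for the 49 members, ordered by the mean over the 8 lines, with colours for the p53 status, circles for male and triangles for female lines. *Timp2*, *Timp1* and *Mmp2* are the 3 highest, at 331, 274 and 218 RPKM on average, and *Adamts3* is the lowest at 0.0703.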

How the data were processed

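RNA-seq libraries of 24 astrocyte samples (8 lines, 3 replicates each) were analysed from the raw read counts per gene that the authors deposited. Per the labels and the study's methods, the authors aligned reads with STAR 2.5.1a and counted uniquely aligned, unambiguous reads with featureCounts of Subread, then left out ribosomal genes and genes of low counts. Strand use in counting is not given in the sources used here. Lines were taken from the sample labels. Symbols, positions and exon lengths came from GENCODE M21 (GRCm38), which matched 14350 of the 14427 gene IDs.

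Counts were tested with edgeR 4.0.16 in R 4.3.3 (TMM, quasi-likelihood, 1 mean per line over all 24 libraries, Benjamini-Hochberg over 14427 genes, threshold 0.05). Every gene passed a filter of more than 1 CPM in 2 or more libraries. SE is the absolute log2 difference divided by the square root of F. Total counts were 52787288 to 136503809 per library (median 80684345.5). A line whose 3 libraries held 3 counts or fewer each was set at that floor of 3 counts per library, which covers counting error only. No 2 libraries were identical. On simulated data for male p53 R172H against male p53 KO (13872 genes), the test found 195 of 200 genes that had been changed and 9 that had not. The changed genes were drawn from genes of high counts, and the lines otherwise shared their means. The result therefore does not cover members of few counts. Alternatives were DESeq2 size factors, no filter, over 5 CPM in at least 3 libraries, limma 3.58.1 voomWithQualityWeights (the authors' test), DESeq2 1.42.0, a replicate block, a fit to only the lines compared, stricter thresholds, and each replicate left out.

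Genes named with full values were the 3 largest rises and falls past the threshold in each mutant against p53 KO comparison (10 counts or more in each library of the higher line), the 2 largest each way between the sexes, the 4 largest interactions, and the TIMPs, *Mmp2*, *Mmp14*, *Mmp3*, *Mmp9*, *Mmp13*, *Adam10*, *Adam17*, *Adamts1*, *Adamts4* and *Adamts5*. Further members were named to complete their group. Members, groups and gene lists were chosen with earlier results of these data known.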

Additional observations from a re-analysis of the deposited data

Results flagged for a closer look

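The difference from p53 KO itself differed between the male and the female line for many members, by a test of the interaction in edgeR (male minus female difference, log2). This held for 38 members with R172H, 35 with Y202C and 38 with Y217C. Since 58%, 68% and 54.8% of all genes passed the same test and each sex is 1 culture, sex, culture and line cannot be told apart.

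In p53 R172H the furthest members were *Mmp3* (-7.81), *Adamts15* (-7.72), *Adamts9* (-6.58) and *Mmp13* (-6.57), and each of them was at the floor or below 2 CPM in female p53 KO. In p53 Y202C they were *Mmp9* (-3.85), *Adamts9* (-3.66), *Adamts8* (-3.65) and *Adamtsl2* (-3.62), again with the higher value in the female line. In p53 Y217C, *Adamts3* (4.88), *Mmp15* (3.86) and *Adamtsl2* (3.74) were further up in the male line and *Adam33* (-4.41) in the female line. Of these 12 values, those of *Adamts15* and *Mmp13* with R172H (through the female line) and of *Adamts3* and *Adamtsl2* with Y217C (through the male line) belong to members over 1 CPM in all libraries of that 1 line only, the line through which they entered the table, so that in the interaction with that mutation they had to differ.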

How the results depend on the processing

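Of 637 results of a member in a comparison, 479 passed the threshold, and none of these turned direction under any alternative. Requiring in addition an absolute log2 difference above 0.5 left 17 members in male p53 R172H (30 without it) and 15 between the p53 KO lines (26 without it). Calls lost and gained were 0 and 2 with DESeq2 size factors, 0 and 0 without a filter, 4 and 5 of 494 results under the stricter filter, 7 and 21 in limma, 0 and 8 in DESeq2, and 3 and 11 of 558 results with only the lines compared. Leaving out 1 replicate ended 44 calls in some setting, and the counts of members then ranged from 25 to 26 in male p53 R172H, 38 to 40 in male p53 Y202C and in male p53 Y217C, 37 to 39 in female p53 R172H, 37 to 40 in female p53 Y202C, 29 to 33 in female p53 Y217C and 23 to 27 between the p53 KO lines. Replicate numbers did not pair the samples (mean correlation of deviations -0.0116 over 84 same-numbered pairs and 0.00571 over 168 others). With the replicate block 2 calls were lost and 2 gained, and the counts of members stayed between 24 and 44. At 3 libraries a line, members of few counts, such as *Adamts3*, are the least precise.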
